A study of Rattus norvegicus with 13 samples.

Results

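Genes that respond to glucocorticoids were followed in the left ventricle of pregnant rats. The 9 genes were Nr3c1, Fkbp5, Tsc22d3, Sgk1, Zbtb16, Klf9, Cebpd, Cebpb and Errfi1, and a probe set, the group of short probes that reads 1 transcript on an Affymetrix array, was taken when it carried 1 of these symbols and no other. In all, 8 of the 9 genes had such probe sets, 14 of the 31042 that were tested. Zbtb16, a zinc finger transcription factor, matched none and was not analysed here. Female Sprague Dawley rats drank water with L-NAME at 1 g/L, an inhibitor of nitric oxide synthesis (4 arrays, L-NAME), water with L-methionine at 9 g/L, which was given to raise homocysteine (4 arrays, Met-fed), or plain water (5 arrays, control). By the sample records, treatment began on day 1 of pregnancy and ended on day 20, and hearts were taken under pentobarbital on day 20 or 21. The labels give neither age nor parity, while the study's methods describe rats that had been mated several times. In those methods methionine was given from the first pregnancy until death in a later one, so the length of treatment differs between the sources. Replicates are numbered within each group, but the labels do not say that each array came from its own rat, so p-values measure the spread between these arrays.

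The glucocorticoid receptor, the product of Nr3c1, waits in the cytoplasm in a complex with heat shock proteins and immunophilins. When it binds corticosterone, the main glucocorticoid of the rat, it enters the nucleus and changes the transcription of many genes, some of which act back on the receptor itself. In heart muscle the hormone is known to affect growth, metabolism and ion transport, and plasma levels follow the time of day and stress.

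Values are log2 of the MAS5 signal, which the authors had scaled on each array. The L-NAME arrays stood apart from the other 9. Their median signal was 34.2 to 36.9, against 25.8 to 29.2 on Met-fed and 25.7 to 27.2 on control arrays, and their log2 ratio of 3′ to 5′ beta-actin signal, a measure of RNA integrity and labelling, was 2.32 to 2.70, against 3.32 to 3.71 on Met-fed and 3.31 to 3.67 on control arrays. The spike-in controls were labelled transcripts of known amount that are added for hybridization. Their mean log2 signal was 9.80 to 9.97 on L-NAME, 10.02 to 10.27 on Met-fed and 10.16 to 10.41 on control arrays. All 6 cardiomyocyte markers were above the highest bacterial control probe set on all 13 arrays, and their summed signal was 13088 to 15374 in L-NAME, 16565 to 23443 in Met-fed and 20636 to 22612 in control hearts. The summed signal of 4 endothelial markers was 3477 to 3949 in L-NAME, 4461 to 5230 in Met-fed and 4943 to 5766 in control hearts, and that of 7 leukocyte markers was 4386 to 5198 in L-NAME, 5302 to 7008 in Met-fed and 6060 to 6337 in control hearts. In L-NAME against control, 6 of 6 cardiomyocyte, 4 of 4 endothelial and 4 of 7 leukocyte markers fell and 1 leukocyte marker rose (limma, adjusted p under 0.05). Over all probe sets 17.0% were called lower and 28.7% higher. Of 4 smooth muscle markers 2 rose and 1 fell, and of 5 fibroblast markers 2 fell and 0 rose. Of 3 erythroid markers 1 fell, and none of 4 atrial and 5 adipocyte markers was called. The part of these markers in the falls described below was not tested. Of 5 adipocyte markers, Lep was never above the bacterial controls, and the summed signal of the 5 spanned 51.8 to 421.1 in L-NAME, 108.1 to 293.0 in Met-fed and 75.4 to 399.7 in control hearts. Because left ventricle is a mixed tissue, fewer cells of a type and less RNA per cell cannot be told apart.

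**Figure D1:**
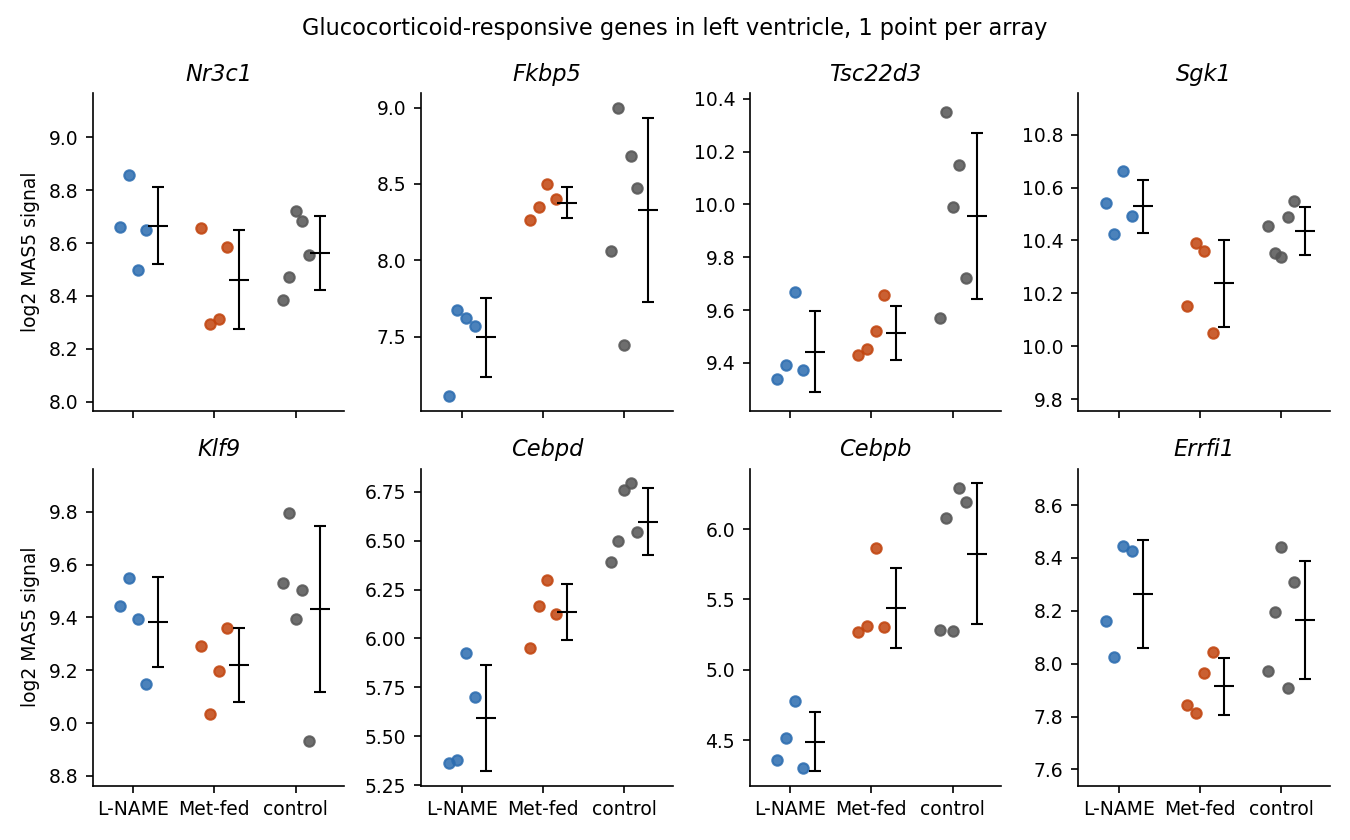
Log2 MAS5 signal of the brightest probe set of each of 8 glucocorticoid-responsive genes, with 1 point per array in the L-NAME (n = 4), Met-fed (n = 4) and control (n = 5) groups and, beside them, the mean with its SD; each panel has its own vertical range. Cebpd lay below every control array in both treated groups, while Nr3c1 overlapped between all groups.

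In Met-fed hearts 7 of the 8 genes had a lower mean signal than in control hearts, and Fkbp5 was the exception. The median log2 change of the 8 genes was -0.23, against 0.00 over all probe sets, of which 49.3% had a lower mean signal. The differences were small, and none of the 8 passed an adjusted p of 0.05 in limma, as was the case for 0.00% of all probe sets. At an unadjusted p under 0.05, 3 of the 8 were lower (Tsc22d3, Cebpd and Sgk1), against 4.97% of all probe sets in that direction. The methods' t-test gave 2 of them (Tsc22d3 and Cebpd) before adjustment and 0 after it. Cebpd was the single gene of the 8 whose Met-fed arrays all lay below the control arrays, which was found for 1.55% of all probe sets. The count of 3 became 5 without control replicate 1 and 2 without Met-fed replicate 1.

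In L-NAME hearts Fkbp5, Tsc22d3, Cebpd and Cebpb fell relative to control hearts, and Nr3c1, Sgk1, Klf9 and Errfi1 did not pass the test. The 4 calls of 8 compare with 45.7% of all probe sets called in either direction and with 17.0% called lower and 28.7% called higher (limma, adjusted p under 0.05). The share called is therefore near that of all probe sets, while all 4 were in the lower direction. The brightest probe sets of the 8 genes were all of at least median signal. Among the 15521 such probe sets, fitted alone, 10399 were called, a larger share than over all probe sets, and 5651 of these were higher. The same 4 genes were called there. The median log2 change was -0.28 for the 8 genes, 0.22 for all probe sets and -0.09 for the probe sets above a mean log2 signal of 7.39. With the beta-actin ratio or the spike-in signal as a covariate none of the 8 passed, and since every L-NAME array had a lower ratio than every other array, treatment and this property of the arrays cannot be told apart. With each array centred on its own median, which moved the median change of all probe sets to -0.21, 7 of the 8 passed, all lower, and so did 29.7% of all probe sets in that direction. With quantile and with cyclic loess normalization 5 of the 8 passed, the same 4 and Sgk1, which was higher.

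Between the treated groups, Fkbp5, Cebpd and Cebpb were lower and Sgk1 and Errfi1 higher in L-NAME than in Met-fed hearts (limma, adjusted p under 0.05), although the directions of Sgk1 and Errfi1 turned with array median centring. The 5 calls of 8 compare with 40.3% of all probe sets, the 3 lower calls with 14.9% and the 2 higher calls with 25.4%. With the beta-actin ratio as a covariate none passed, and with the spike-in signal 1 did (Sgk1).

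**Figure D2:**
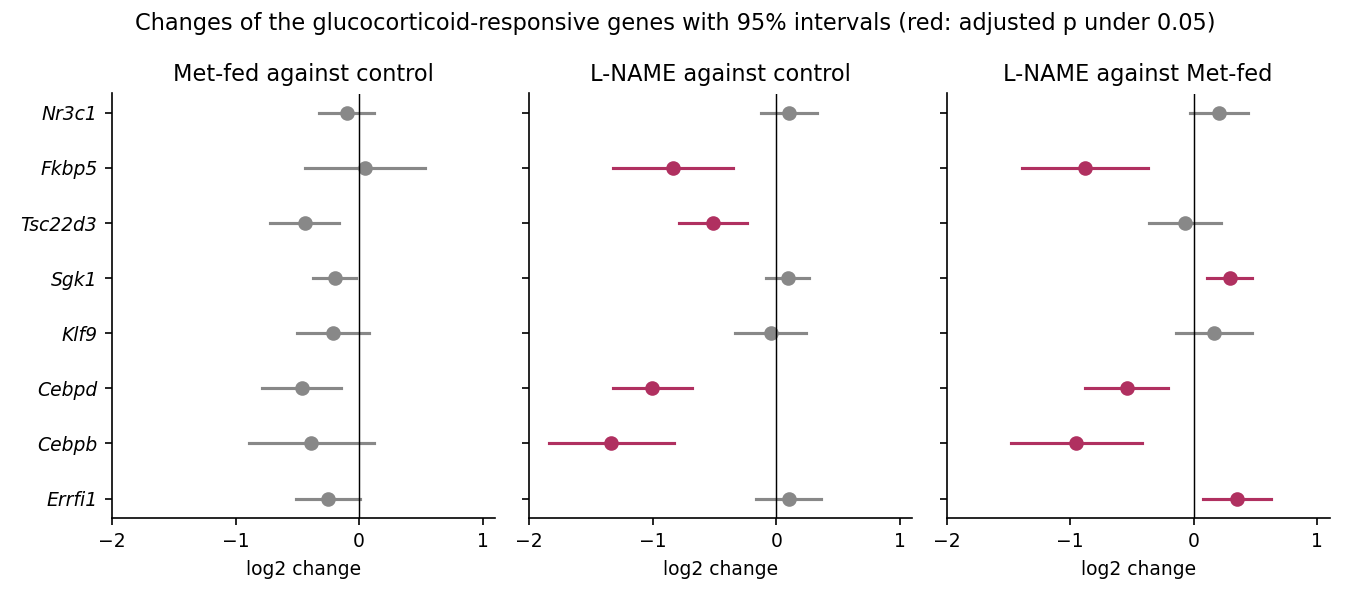
Log2 change of the brightest probe set of each gene (points) with its 95% interval (lines) from limma, with a panel for each of the 3 comparisons; red marks an adjusted p under 0.05. No interval is red for Met-fed against control, and Cebpb has the lowest value of L-NAME against control, at -1.34.

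The receptor gene Nr3c1 (probe set 1368221_at) had log2 signals of 8.66, 8.86, 8.50 and 8.65 in the L-NAME arrays, 8.66, 8.29, 8.31 and 8.59 in the Met-fed arrays, and 8.38, 8.47, 8.72, 8.68 and 8.56 in the control arrays. The 3 groups overlapped. The log2 change was 0.10 ± 0.11 (SE) in L-NAME against control, with a 95% interval of -0.12 to 0.33, and -0.10 ± 0.11 in Met-fed against control, with an interval of -0.33 to 0.12. The adjusted p was 0.463 and 0.774 in these comparisons (limma). The sign of the L-NAME difference turned with array median centring (-0.32). A dimmer probe set of Nr3c1 (1368222_at), with a mean log2 signal of 3.27, gave 0.24 ± 0.35 for L-NAME and -0.21 ± 0.35 for Met-fed against control.

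Fkbp5 codes for an immunophilin that binds the receptor complex and lowers its affinity for hormone, and its transcription is itself raised by the receptor. Its log2 signals (1388901_at) were 7.11, 7.67, 7.63 and 7.57 in L-NAME hearts, 8.26, 8.35, 8.50 and 8.40 in Met-fed hearts, and 8.06, 9.00, 7.44, 8.69 and 8.47 in control hearts. The L-NAME arrays were below all Met-fed arrays, but control replicate 3 lay within their range. The control arrays varied widely (SD 0.60, n = 5), whereas the Met-fed arrays were close together (SD 0.10, n = 4). Fkbp5 fell in L-NAME hearts by 0.84 ± 0.23 on the log2 scale, a 1.78-fold lower signal (limma, adjusted p = 0.00663). By exact permutation, 2-sided, p was 0.0635, and the methods' t-test gave an adjusted p of 0.0788. The difference between Met-fed and control hearts was 0.05 ± 0.23, with a 95% interval of -0.44 to 0.53, and turned sign without control replicate 1 (-0.021) or control replicate 3 (-0.18).

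Tsc22d3, also called Gilz, is a leucine zipper protein that carries part of the anti-inflammatory action of glucocorticoids. It (1367771_at) gave 9.34, 9.39, 9.67 and 9.37 in L-NAME hearts, 9.43, 9.45, 9.52 and 9.66 in Met-fed hearts, and 9.57, 10.35, 9.99, 10.15 and 9.72 in control hearts. In both treated groups 3 of 4 arrays were below all control arrays, and the remaining one lay between control replicates 1 and 5. The log2 change was -0.51 ± 0.13 for L-NAME (limma, adjusted p = 0.00414) and -0.44 ± 0.13 for Met-fed against control (limma, adjusted p = 0.294). By exact permutation p was 0.0397 for both. The treated groups differed by -0.07 ± 0.14, with a 95% interval of -0.36 to 0.22. Both comparisons were made against the same control arrays.

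Sgk1, a serum- and glucocorticoid-regulated kinase that acts on ion channels and transporters, had the values (1367802_at) 10.54, 10.42, 10.66 and 10.49 in L-NAME hearts, 10.15, 10.39, 10.36 and 10.05 in Met-fed hearts, and 10.45, 10.35, 10.34, 10.49 and 10.55 in control hearts. Met-fed replicates 1 and 4 were the lowest of all. The log2 change was -0.20 ± 0.08 in Met-fed hearts against control (limma, adjusted p = 0.411), and 0.09 ± 0.08 in L-NAME hearts against control (adjusted p = 0.389). Sgk1 was higher in L-NAME than in Met-fed hearts by 0.29 ± 0.09 (adjusted p = 0.0132), which was no longer called without Met-fed replicate 4 (adjusted p = 0.0503) and turned to -0.076 with array median centring. With quantile normalization the L-NAME difference from control was 0.41 (adjusted p = 1.14e-04).

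Klf9 codes for a Krüppel-like transcription factor that the receptor induces in many tissues. Its brightest probe set (1370209_at) gave 9.44, 9.55, 9.39 and 9.15 in L-NAME hearts, 9.29, 9.04, 9.20 and 9.36 in Met-fed hearts, and 9.53, 9.79, 9.39, 9.50 and 8.93 in control hearts. Control replicate 5 was the lowest array, and the groups overlapped. The log2 change was -0.05 ± 0.14 for L-NAME, with signs that differed between scalings, and -0.21 ± 0.14 for Met-fed against control, with 95% intervals of -0.34 to 0.24 and -0.50 to 0.08.

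Cebpd, a transcription factor of the acute phase and of adipocyte differentiation, separated the 3 groups. The log2 signals of its brightest probe set (1387343_at) were 5.36, 5.38, 5.93 and 5.70 in L-NAME hearts, 5.95, 6.16, 6.30 and 6.12 in Met-fed hearts, and 6.39, 6.50, 6.76, 6.80 and 6.55 in control hearts. No array of 1 group overlapped another group. Cebpd fell by 1.00 ± 0.15 in L-NAME hearts against control, 2.01-fold (limma, adjusted p = 4.13e-05), and by exact permutation p was 0.00794, the smallest value that 4 against 5 arrays allow. In Met-fed hearts the log2 change was -0.46 ± 0.15 (p = 0.00718 unadjusted, adjusted p = 0.325 in limma, exact permutation test p = 0.0159), and the highest Met-fed array was at 6.30 against the lowest control array at 6.39. At this probe set Cebpd was 0.54 ± 0.16 lower in L-NAME than in Met-fed hearts, with a log2 change of -0.54 (adjusted p = 0.0120). Its dimmer probe sets, given below, were called in the other direction in that comparison.

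Cebpb codes for the related factor C/EBP beta, which acts in metabolism and inflammation and, in rodent hearts, in the growth response to exercise. It (1387087_at) gave 4.36, 4.52, 4.78 and 4.30 in L-NAME hearts, 5.27, 5.31, 5.87 and 5.30 in Met-fed hearts, and 5.29, 6.08, 5.28, 6.29 and 6.20 in control hearts. The L-NAME arrays were below all other arrays. Control arrays split into replicates 1 and 3 near 5.28 and the other 3 between 6.08 and 6.29, while 3 of the 4 Met-fed arrays lay close to the lower control values. Cebpb fell by 1.34 ± 0.24 in L-NAME hearts against control, 2.52-fold (adjusted p = 2.20e-04 in limma), and by 0.95 ± 0.25 against Met-fed hearts (adjusted p = 0.00641). In Met-fed against control hearts the log2 change was -0.39 ± 0.24, with a 95% interval of -0.89 to 0.12.

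Errfi1, also called Mig6, is a feedback inhibitor of the epidermal growth factor receptor. It (1373093_at) gave 8.16, 8.02, 8.44 and 8.43 in L-NAME hearts, 7.84, 7.81, 7.96 and 8.04 in Met-fed hearts, and 7.97, 8.20, 8.44, 7.91 and 8.31 in control hearts. Met-fed replicates 1 and 2 were the lowest arrays. The log2 change was -0.25 ± 0.12 for Met-fed against control, with a 95% interval of -0.51 to 0.01, and 0.10 ± 0.12 for L-NAME against control, which turned to -0.33 with array median centring. Errfi1 was higher in L-NAME than in Met-fed hearts by 0.35 ± 0.13 (adjusted p = 0.0417 in limma), but it was no longer called without Met-fed replicate 1, 2 or 3 or L-NAME replicate 3 or 4 (adjusted p of 0.0616 to 0.124), nor with quantile or cyclic loess normalization, and its exact permutation test gave p = 0.0571.

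The dimmer probe sets of Fkbp5 and Cebpd did not follow the brightest ones in L-NAME hearts. The dimmest probe set of Cebpd (1368813_at) gave 3.91, 3.73, 4.21 and 3.97 in L-NAME hearts, 2.36, 1.13, 0.75 and 1.76 in Met-fed hearts, and -0.84, 2.62, -0.87, 0.27 and 1.08 in control hearts, and its difference was 3.50 ± 0.63 in L-NAME against control (adjusted p = 2.34e-04 in limma). It was above the highest bacterial control probe set on 4 of 4 L-NAME, 2 of 4 Met-fed and 1 of 5 control arrays, so the size of this difference is set against values mostly at background. A further Cebpd probe set (1389828_at) had a change of 0.41 ± 0.22 (adjusted p = 0.153), and its L-NAME arrays lay above all control arrays. The second Fkbp5 probe set (1380611_at) gave 5.31, 5.23, 5.36 and 5.25 in L-NAME hearts, 5.36, 4.86, 4.02 and 4.67 in Met-fed hearts, and 3.90, 5.37, 2.81, 5.00 and 3.21 in control hearts, and rose by 1.23 ± 0.44 (adjusted p = 0.0293). A dim probe set of Klf9 (1390076_at) had a change of 0.78 ± 0.32 and did not pass the test. It was above the bacterial controls on all 13 arrays, and its L-NAME arrays lay above all control arrays. Another (1387882_at) was above the bacterial controls on only 2 of 4 L-NAME, 0 of 4 Met-fed and 1 of 5 control arrays. In L-NAME against Met-fed hearts 1390076_at was called higher by 1.52 ± 0.33 (adjusted p = 0.00168 in limma). So were the Cebpd probe sets 1368813_at (2.45 ± 0.66, adjusted p = 0.00734) and 1389828_at (0.61 ± 0.24, adjusted p = 0.0485). Over all probe sets from 1.82 to 4.87 in mean log2 signal, the median change there was 0.55. With the mean of all probe sets of a gene in place of the brightest, the L-NAME change against control was 0.97 for Cebpd and 0.20 for Fkbp5, opposite in sign to the brightest probe sets, and the mean for Cebpd includes the probe set at background. Over all probe sets the median change in L-NAME hearts was 0.30 at mean log2 signals below 1.82, 0.54 from there to 4.87, 0.28 from there to 7.39 and -0.09 above that under the authors' scaling. With quantile normalization these medians were -0.07, 0.07, -0.01 and -0.04. Of the 14 probe sets, 6 passed in L-NAME against control, 2 higher and 4 lower. Over all probe sets 45.7% passed, 28.7% higher and 17.0% lower, so the share of the 14 is near that of all.

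**Figure D3:**
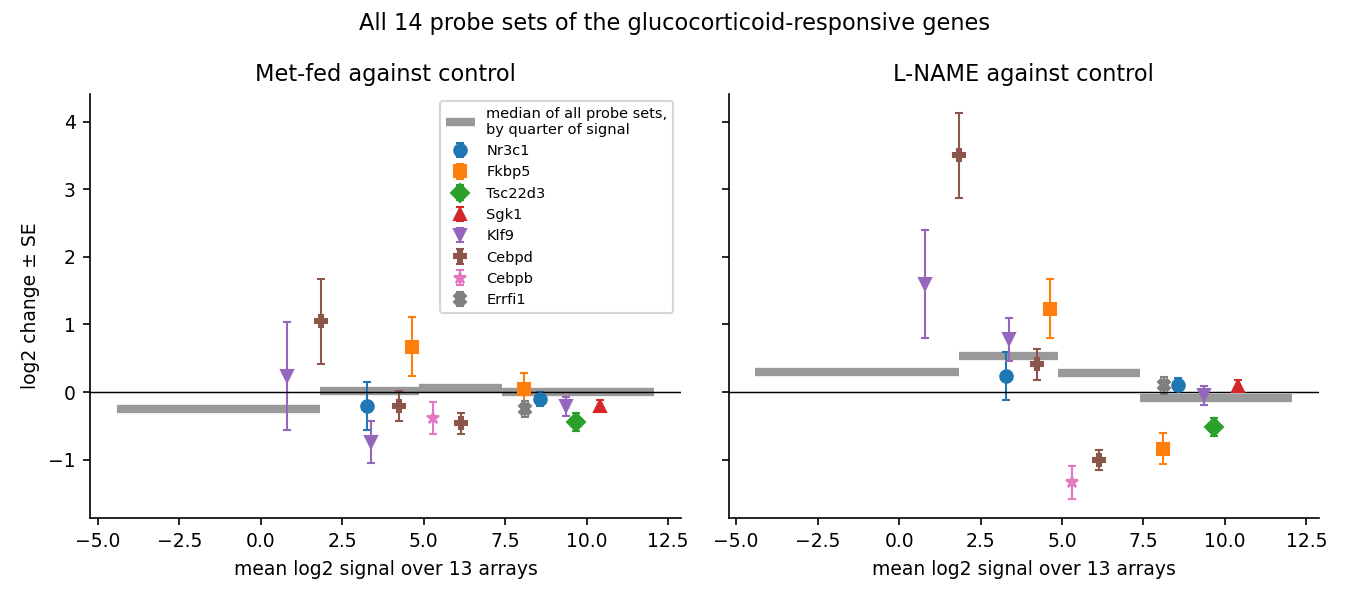
Log2 change ± SE of the 14 probe sets (symbols by gene) against their mean log2 signal over 13 arrays, in Met-fed against control (left) and L-NAME against control (right); gray bars give the median change of all probe sets in 4 classes of signal. In L-NAME against control the dimmest probe set of Cebpd lies at 3.50, while its brightest lies below 0.

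Windows around the transcription start, from 250 bases before to 50 bases after it, were read from RefSeq (GRCr8) for 7 of the genes, 12 windows in all, and none was listed for Cebpd. The windows of Fkbp5, Cebpb and Tsc22d3 are shown because these genes fell in L-NAME hearts, and 1 of the 3 starts of Tsc22d3 was chosen for the TATA box it holds. Capitals mark the CCAAT box, the TATA box (TATAAA) and the sequence TGACG on either strand, and CCAATTGG holds a CCAAT box on each strand, which overlap.
Fkbp5 (chr20:6543506-6543805, minus strand): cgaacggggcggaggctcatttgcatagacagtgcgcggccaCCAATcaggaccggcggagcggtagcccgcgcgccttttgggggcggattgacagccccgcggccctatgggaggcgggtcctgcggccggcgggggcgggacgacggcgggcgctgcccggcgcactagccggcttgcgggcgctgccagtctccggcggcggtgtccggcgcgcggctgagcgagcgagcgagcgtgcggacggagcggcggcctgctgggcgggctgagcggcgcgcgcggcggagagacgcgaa
Cebpb (chr3:176816755-176817054, plus strand): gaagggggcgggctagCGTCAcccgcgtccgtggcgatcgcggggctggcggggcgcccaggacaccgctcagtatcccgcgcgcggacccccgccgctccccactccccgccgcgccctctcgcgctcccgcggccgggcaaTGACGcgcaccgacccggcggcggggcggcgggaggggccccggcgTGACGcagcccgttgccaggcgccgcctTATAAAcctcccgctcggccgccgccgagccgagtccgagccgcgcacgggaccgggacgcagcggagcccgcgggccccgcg
Tsc22d3 (chrX:109009985-109010284, minus strand): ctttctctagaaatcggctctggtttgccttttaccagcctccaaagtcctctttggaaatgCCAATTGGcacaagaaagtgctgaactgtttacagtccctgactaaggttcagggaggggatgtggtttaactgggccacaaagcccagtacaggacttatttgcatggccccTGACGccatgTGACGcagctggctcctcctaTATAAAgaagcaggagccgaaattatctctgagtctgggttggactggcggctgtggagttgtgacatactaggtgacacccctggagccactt
The GC content was 77.0% in the Fkbp5 window, 81.0% in that of Cebpb and 50.7% in that of Tsc22d3, against a median of 51.7% over 33469 windows. TATAAA was found in 5 of the 12 windows, against 14.2% of all windows, and lies at positions -33 to -28 from the start in Cebpb and at -44 to -39 in Tsc22d3. CCAAT was in 4 of 12 (37.5% of all) and TGACG, a part of the cyclic AMP response element, in 4 of 12 (21.2% of all). The glucocorticoid receptor's binding hexamer TGTTCT, held by 20.7% of all windows, and its paired form GNACANNNTGTNC, held by 0.439%, were in 0 of the 12, as was CACGTG, the E-box that clock proteins bind (6.42% of all). Both strands were searched, and TGTTCT can overlap the paired form. These counts say only that the letters are not in these windows.

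The proteins around the receptor were read from a list of 19, of which 16 were measured. In L-NAME hearts 8 were higher and 5 lower than in control hearts (limma, adjusted p under 0.05), with a median change of 0.47, against 28.7% called higher and 17.0% called lower over all probe sets. Stip1, a co-chaperone that hands the receptor between heat shock proteins, rose by 1.18 ± 0.12 (adjusted p = 6.70e-07), and Fkbp4, the immunophilin that opposes Fkbp5 on the receptor, rose by 1.04 ± 0.15 (adjusted p = 2.98e-05). Hsd11b1, the enzyme that regenerates active corticosterone within cells, fell by 0.63 ± 0.08 (adjusted p = 1.27e-05). All 3 calls were lost with the beta-actin ratio as a covariate. In Met-fed hearts none of the 16 passed in limma (2 higher at an unadjusted p under 0.05), and Stip1 had the smallest p, with a log2 change of 0.37 ± 0.12 (adjusted p = 0.312).

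A list of 32 other glucocorticoid targets had 30 measured genes. In Met-fed hearts 23 of them had a lower mean signal and 7 a higher one, with a median log2 change of -0.19, and 4 were lower at an unadjusted p under 0.05, against 0 higher. Over all probe sets 49.3% had a lower mean signal, the median change was 0.00 and 4.97% were lower at that unadjusted p. None passed an adjusted p of 0.05 (limma). The smallest p-values were those of Sesn1, a stress-responsive inhibitor of growth signaling (-0.61 ± 0.18, adjusted p = 0.290), Klf15, a regulator of cardiac metabolism (-0.54 ± 0.18, adjusted p = 0.338), and Mertk, a receptor for the clearance of dying cells (-0.37 ± 0.13, adjusted p = 0.343). In L-NAME hearts 12 of the 30 fell and 5 rose, with a median change of -0.25, and the 17 calls are near the 45.7% of all probe sets called. The falls included Cdkn1c, a cell cycle inhibitor (-1.94 ± 0.14), Mt1, a metallothionein (-1.50 ± 0.17), and Txnip, an inhibitor of thioredoxin (-0.60 ± 0.07), with adjusted p of 3.55e-08, 3.05e-06 and 1.73e-06. The calls of Mt1 and Txnip were lost with the beta-actin ratio as a covariate, and that of Txnip also with quantile and cyclic loess normalization. Nfkbia, the inhibitor of NF-kappaB, was higher in L-NAME than in Met-fed hearts by 1.72 ± 0.21 (adjusted p = 9.52e-06), and than in control hearts by 1.38 ± 0.20. Its call against Met-fed hearts was lost with the beta-actin ratio as a covariate.

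Of 15 measured paralogs of the 9 genes, 5 rose and 3 fell in L-NAME hearts, a share near the 45.7% of all probe sets called, and none passed in Met-fed hearts in limma (1 higher at an unadjusted p under 0.05). Tsc22d4 fell by 1.64 ± 0.15 and Tsc22d1 by 0.63 ± 0.07 (adjusted p of 4.15e-07 and 2.42e-06 in limma), the direction of Tsc22d3, whereas Sgk3 rose by 1.01 ± 0.16 (adjusted p = 7.05e-05) while Sgk1 was not called. The calls of Tsc22d1 and Sgk3 were lost with the beta-actin ratio as a covariate, and that of Tsc22d4 was kept. That of Tsc22d1 was also lost with the mean of its probe sets, and that of Sgk3 with the spike-in signal as a covariate. Among the 4 genes of the epidermal growth factor receptor family, on which Errfi1 acts, Egfr fell by 1.23 ± 0.17 in L-NAME hearts (adjusted p = 2.08e-05). This call was lost with the beta-actin ratio as a covariate and with the mean of the gene's probe sets. Erbb2, a dim probe set, rose by 0.98 ± 0.34 (adjusted p = 0.0248), a call that was lost with quantile normalization and with array median centring, among others.

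Lists that move with handling and with the time of day were read beside these genes. Of 11 immediate early genes, 8 were higher and 0 lower in L-NAME hearts, against 28.7% of all probe sets called higher, among them Jun (0.65 ± 0.14) and Zfp36 (0.92 ± 0.22), and their summed signal was 2495 to 6054 in L-NAME, 1762 to 2639 in Met-fed and 1805 to 2419 in control hearts. The count of 8 became 5 without L-NAME replicate 1. The calls of Jun and Zfp36 were lost with array median centring and the spike-in covariate, and their signs turned with the beta-actin covariate. Of 15 clock genes, 3 rose and 2 fell in L-NAME hearts, fewer than the 45.7% called over all probe sets. Bmal1, a core activator of the clock, rose by 2.15 ± 0.27 (adjusted p = 7.17e-06 in limma), Tef, an output factor of the clock, rose by 1.36 ± 0.20 (adjusted p = 2.95e-05), and Nr1d1, a clock repressor, fell by 1.16 ± 0.23 (adjusted p = 6.68e-04). All 3 calls were lost with the beta-actin covariate, and that of Tef also with the spike-in covariate and the mean of its probe sets. For Met-fed against control the changes were 0.70 ± 0.27 for Bmal1 and -0.58 ± 0.23 for Nr1d1, with adjusted p of 0.379 and 0.401. The part of the clock genes and of the immediate early genes in the differences above was not tested, and the hour of death is not among the labels.

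Co-variation was examined on the deviations of the 13 arrays from their group means, which leaves out the difference between groups. Of the 28 pairs of the 8 genes, 15 had r above 0 and 13 below, with a median r of 0.07. No pair passed an adjusted p of 0.05 in the exact permutation test within groups, 2-sided, and 3 had an unadjusted p under 0.05. All arrays share the scaling of whole arrays, which touches every pair.

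**Figure D4:**
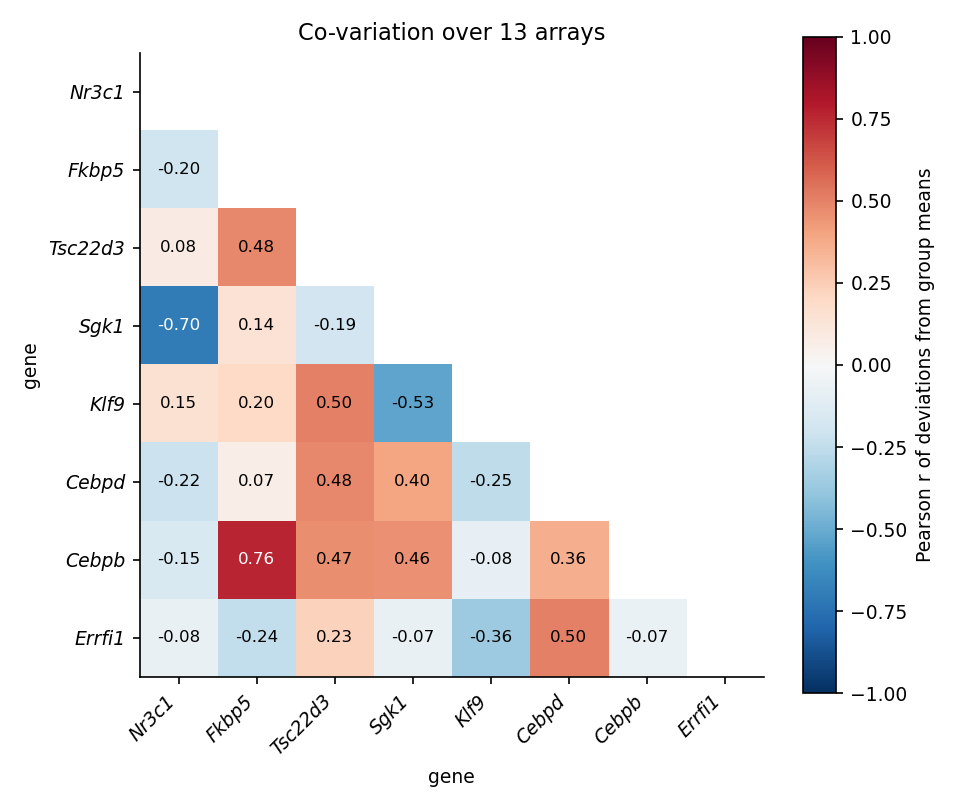
Pearson r of the deviations from group means over 13 arrays for the 28 pairs of 8 glucocorticoid-responsive genes, on a color scale from -1 (blue) to 1 (red). Fkbp5 and Cebpb gave the highest r, 0.76, and Nr3c1 and Sgk1 the lowest, -0.70.

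The closest pair was Fkbp5 and Cebpb, with r = 0.76 over 13 arrays (exact permutation test, p = 0.0214, adjusted over 28 pairs p = 0.407) and Spearman's rho = 0.77 (exact permutation p = 0.0130, adjusted p = 0.295). Control replicates 2, 4 and 5 were high and replicates 1 and 3 low in both genes. Without control replicates 2 and 3, the arrays farthest from the median of Fkbp5, r was 0.75, and over the 9 Met-fed and control arrays without centring r was 0.68 (exact permutation p = 0.0248, adjusted p = 0.347) and rho 0.85 (exact permutation p = 0.00607, adjusted p = 0.170). Nr3c1 and Sgk1 had r = -0.70 and rho = -0.75 over 13 arrays (exact permutation p = 0.0404 and 0.0211, adjusted p = 0.407 and 0.295). For this pair r was -0.63 without the 2 farthest arrays, and -0.22 over the 9 arrays without centring. Sgk1 and Klf9 had r = -0.53 and rho = -0.52 (exact permutation p = 0.0436 and 0.0746, adjusted p = 0.407 and 0.418). For this pair r was -0.46 without the 2 farthest arrays, and -0.15 over the 9 arrays without centring (exact permutation p = 0.704, adjusted p = 0.856). Values without centring include the difference between the Met-fed and control groups. With centring on group means, the 9 arrays gave r = 0.80 for Fkbp5 and Cebpb. They gave -0.62 for Nr3c1 and Sgk1 and -0.62 for Sgk1 and Klf9, near the values over 13 arrays.

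**Figure D5:**
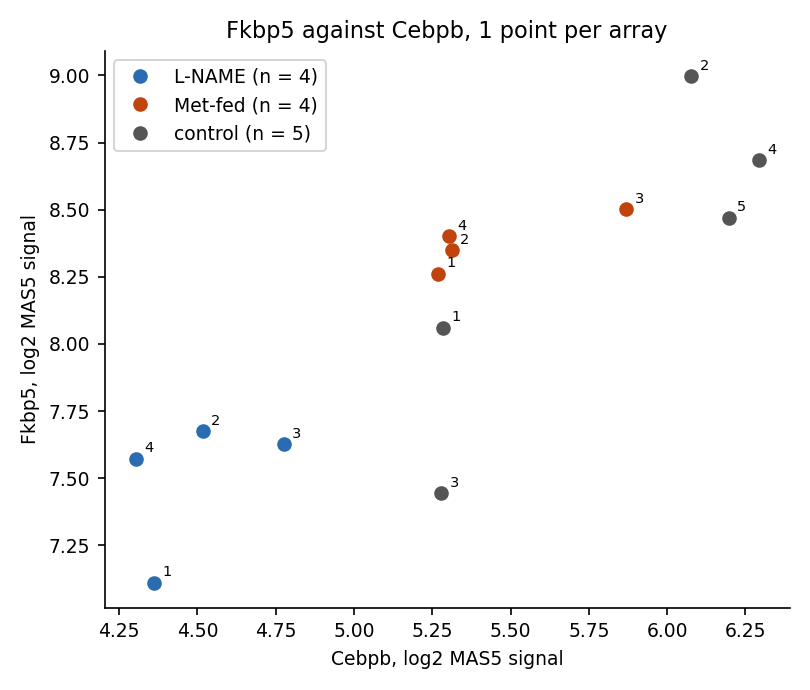
Log2 MAS5 signal of Fkbp5 (vertical) against that of Cebpb (horizontal), 1 point per array, colored by group and numbered by replicate. Control replicates 2, 4 and 5 lie farthest to the right, and the 4 L-NAME arrays farthest to the left.

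Among 9392 genes of at least median signal, the 2 with the highest r of deviations over the 13 arrays were named for each gene, as a description without a test. For Fkbp5 these were Acot2, a mitochondrial acyl-CoA thioesterase (r = 0.90), and Tle1, a transcriptional corepressor (r = 0.86). Acot2 fell in L-NAME hearts by 0.97 ± 0.09 (limma, adjusted p = 3.69e-07), and its change in Met-fed hearts was -0.08 ± 0.09. For Tsc22d3 they were Zkscan3 (0.84) and Zfp106 (0.82), for Cebpb Atf1, a cyclic AMP response factor (0.92), and Eif3m (0.86), and for Cebpd Pkig (0.89) and Flcn (0.83). Nr3c1 was closest to Pdap1 (0.96) and Dnajc27 (0.91), Sgk1 to Ddx17 (0.95) and Capns1 (0.91), Klf9 to Rabgap1l (0.93) and Ercc5 (0.91), and Errfi1 to Vcf1 (0.92) and Tmem59 (0.87). None of these 16 genes was among the 9. Over the 9 Met-fed and control arrays without centring, r was 0.75 or higher for 11 of the 16, and 0.40 for Ddx17, 0.43 for Ercc5, 0.45 for Vcf1, 0.56 for Pkig and 0.74 for Zfp106. These values include the difference between the 2 groups, so they are not like for like with the r of deviations. In Met-fed against control hearts Ddx17 changed by 0.22 and Sgk1 by -0.20, and Ercc5 by 0.26 and Klf9 by -0.21.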

How the data were processed

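The authors extracted total RNA from left ventricle, hybridised it to Affymetrix rat expression arrays and deposited linear intensity values from the MAS5 program, whose version is not given in the sources used here. Scaling to a trimmed mean of 150 on every array was found in the deposited intensity values. These were taken as log2 without an offset, 57 control probe sets were left out, and 31042 probe sets were fitted over 13 arrays with limma 3.58.1 in R 4.3.3 (1 coefficient per group, variance trend), with Benjamini-Hochberg adjustment over all probe sets and a threshold of 0.05. A gene was read from its probe set with the highest mean signal. Exact permutation tests, 2-sided, and correlations were computed in Python 3.11.15 with scipy 1.17.1. Gene symbols came from the platform annotation, and windows around transcription starts from RefSeq.

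All 9 genes were named in the text, with at most 3 genes of smallest p per list and comparison and, for each gene, the 2 genes whose deviations were most alike. The members and lists were chosen with earlier results of these data known, and some list genes were named for their role after their values were seen. The changes and counts of the 8 genes were recomputed with a replicate block, the beta-actin ratio or the spike-in signal as covariate, the mean of a gene's probe sets, a plain t-test with equal variances, no variance trend, only those 2 groups that were compared, probe sets of at least median signal, an offset of 16 or 50, median-centred or quantile-normalized arrays, and each array left out. The pairs were recomputed with the normalizations, an offset of 50, the mean of probe sets and each array left out, and counts over all probe sets without the mean of probe sets. Cyclic loess normalization was chosen after seeing the data. The number of arrays limits the precision. The study's methods count 4 control arrays, while 5 carried the control label and were used.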

Additional observations from a re-analysis of the deposited data

Results flagged for a closer look

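In 42 groups of values (14 probe sets in 3 groups), 4 held an array whose distance from the nearest other array, as a share of the group's range, was above Dixon's 95% limit for its number of arrays, where chance gives about 1 in 20. L-NAME replicate 3 had 9.67 for Tsc22d3, against 9.34 to 9.39 in the other L-NAME arrays (share 0.838). Met-fed replicate 3 had 5.87 for Cebpb, against 5.27 to 5.31 (share 0.928). Met-fed replicate 2 had 3.41 for the dim Cebpd probe set 1389828_at, against 4.10 to 4.22 (share 0.847). Control replicate 2 had 2.46 for the dimmest Klf9 probe set, 1387882_at, against -0.76 to 0.10 (share 0.733).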

How the results depend on the processing

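Array scaling, the beta-actin and spike-in covariates and the choice of probe set moved the results most, and the cause was not tested. With array median centring, 7 of the 8 genes passed in L-NAME against control, and the median change of all probe sets was -0.21, against 0.22 without centring. Signs then turned for Nr3c1 (-0.32), Sgk1 (-0.33) and Errfi1 (-0.33) in L-NAME against control, for Nr3c1 (-0.16), Sgk1 (-0.076), Klf9 (-0.21) and Errfi1 (-0.018) in L-NAME against Met-fed, and for Fkbp5 (-0.011) in Met-fed against control. Calls in L-NAME against control were 8908 higher of 14183 as scaled by the authors, 4952 of 14184 with centring, 6823 of 13619 with quantile and 6755 of 13283 with cyclic loess normalization. In L-NAME against Met-fed they were 7885 of 12495, 4184 of 12160, 5634 of 11386 and 5588 of 10958 in the same order.

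With the beta-actin ratio as a covariate, 1020 probe sets and 0 of the 8 genes passed in L-NAME against control, and 238 and 0 in L-NAME against Met-fed. With the spike-in signal the numbers were 4133 and 0, and 7526 and 1. Signs turned with the beta-actin ratio for Fkbp5 (0.46), Sgk1 (-0.024), Klf9 (0.64) and Errfi1 (-0.38) in L-NAME against control, for Fkbp5 (0.49), Tsc22d3 (0.31), Cebpb (0.14) and Errfi1 (-0.16) in L-NAME against Met-fed, and for Fkbp5 (-0.029) in Met-fed against control. With the spike-in signal they turned for Nr3c1 (-0.22), Fkbp5 (0.29) and Errfi1 (-0.039) in L-NAME against control and for Cebpb (0.038) in Met-fed against control. With the mean of all probe sets of a gene they turned for Fkbp5 (0.20), Klf9 (0.78) and Cebpd (0.97) in L-NAME against control and for Cebpd in L-NAME against Met-fed (0.84) and Met-fed against control (0.13), and 1 pair passed, Nr3c1 and Cebpb (r = -0.85). At the brightest probe sets that pair had r = -0.15 (exact permutation p = 0.636). Cebpb has a single probe set, so this change came from averaging in the dimmer Nr3c1 probe set, 1368222_at. Quantile normalization turned Klf9 (0.033) and Errfi1 (-0.0095) in L-NAME against control, and cyclic loess turned Klf9 (0.084) there and Tsc22d3 (0.093) in L-NAME against Met-fed. The plain t-test called 3 of the 8 in L-NAME against Met-fed.

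Without each array in turn, 0 to 1 probe sets passed in Met-fed against control, 12911 to 14349 in L-NAME against control and 10992 to 12628 in L-NAME against Met-fed, with 0, 4 and 4 to 5 of the 8 genes. The change of Fkbp5 in Met-fed against control was -0.18 to 0.21 and that of Klf9 in L-NAME against control -0.17 to 0.043. The deviations of same-numbered arrays had r of -0.21 to 0.24, below the limit of 0.1 for at least 1 pair in each comparison. In L-NAME against Met-fed, replicates 3 and 4 were above that limit (r of 0.11 and 0.24). Whether same-numbered arrays were handled together was not tested. With the replicate block, 1 probe set passed in Met-fed against control, 13149 in L-NAME against control and 12346 in L-NAME against Met-fed, and the block left the counts of the 8 genes at 0, 4 and 5.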
